A study of Mus musculus with 42 samples.

Results

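The genes described here are the matrix metalloproteinases (Mmp), the Adamts proteases and the Timp inhibitors of the mouse, chosen by symbol: every row of the count tables named Mmp, Adamts or Timp followed by its number. There were 46 of them among 24466 gene symbols, made up of 23 Mmp, 19 Adamts and 4 Timp genes. Their RNA was measured in 3 groups. The +Dox group held 3 libraries of iPax7 cells, muscle precursors derived from a mouse embryonic stem cell line and sorted as PDGFαR+ Flk-1-, in which doxycycline (Dox, given as 0.75 µg/ml in the treatment label and as mg/ml in the growth protocol) switches on a Pax7 transgene. The -Dox group held 2 libraries of the same cells 3 days after Dox was washed out, still in serum with FGF. The satellite group held 3 libraries of muscle stem cells isolated from the muscle of Pax7-ZsGreen reporter mice and labelled in vivo, without Dox, whose age and number of animals were not given in the sources used here. iPax7 is a single engineered line. The libraries of a group sit under 1 sample record and nothing says that they came from separate cultures or animals, so p-values measure only the spread between these libraries, which may be technical.

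Mmps are zinc proteases that cut collagens, gelatin and other proteins around the cell, and most are made as inactive precursors whose prodomain must be removed. Adamts proteases carry thrombospondin repeats that hold them in the matrix, where different members cut proteoglycans such as versican and aggrecan, trim procollagens, or process fibrillin-linked proteins. Timps bind the active site of these enzymes and block it, and Timp3 is the member that stays attached to the matrix and also blocks several Adamts and Adam proteases. In muscle these enzymes are known for letting precursor cells move and fuse, and for remodelling the matrix around the resting satellite cell.

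Levels are given as normalized counts, that is reads counted on a gene divided by the library's effective size from edgeR's TMM method and scaled to a common size. Libraries held 39010958 to 54674619 counts on genes. Reads set aside for aligning to several places made up 7.11% to 7.6% of the iPax7 libraries and 23.6% to 30.7% of the satellite libraries, and the cell source and the preparation of the satellite libraries cannot be told apart. Pax7 itself lay at 11610 to 14130 normalized counts in +Dox, 221 to 269 in -Dox and 3926 to 8504 in satellite cells. All 9 measured genes of a differentiating muscle list, such as Myog, were called higher in -Dox than in +Dox, with sums of 2211000 to 2273000 normalized counts against 8484 to 10100, as were 7 of 8 myofiber genes, and the part of this change of state in the values on withdrawal was not tested.

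A gene was called when it changed at least 2-fold with an adjusted p under 0.05. That p came from the quasi-likelihood test of edgeR and was adjusted by the method of Benjamini and Hochberg over the 14836 genes tested. Of the 46 genes, 33 passed the filter on low counts and were tested. After Dox withdrawal 4 of them rose (Timp2, Timp3, Adamts14 and Adamts20) and 1 fell (Adamts10), against 4.63% of all genes tested that rose and 3.01% that fell. Between satellite cells and +Dox, 16 were higher and 4 lower in satellite cells, against 23.9% and 18.2% of all genes tested. Between satellite cells and -Dox, 14 were higher and 4 lower, against 20.4% and 17.2%. The median log2 fold change of the 33 genes was 0.10 on withdrawal, beside -0.00492 over all genes. It was 2.74 for satellite cells over +Dox, beside 0.17, and 2.73 for satellite cells over -Dox, beside 0.23, or 2.19 where a gene with no counts in a group was set at its lower bound. Several of the 33 (such as Adamts8, Adamts15, Adamts17, Mmp3, Mmp8, Mmp17 and Mmp21) passed the filter only through their counts in satellite cells and could not be called lower there. In the same way Mmp10 and Mmp12 passed it only through +Dox and could not be called lower in that group. The counts of genes higher or lower in satellite cells and these medians therefore describe the genes and carry no test. The 3 comparisons share libraries and are not independent of each other.

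With library totals in place of TMM factors, the share of called genes that were higher went from 60.6% to 48.2% on withdrawal and from 56.7% to 44% for satellite cells over +Dox, and the median of all genes moved to -0.22 and -0.196. Under that scaling 3 of the genes described here rose and 1 fell on withdrawal, and 15 were higher and 4 lower in satellite cells than in +Dox. Beside these, of all 14836 genes tested 564 rose and 606 fell on withdrawal, and 2833 were higher and 3600 lower in satellite cells.

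The satellite libraries also carried markers of other cell types, which stand beside every difference from satellite cells. Of all genes tested, 23.9% were called higher in satellite cells than in +Dox and 18.2% lower. The cells came from the Pax7-ZsGreen strain and were sorted fresh for ATAC-seq. The gate used for RNA-seq and the purity of the cells were not given in the sources used here. All 8 endothelial markers were called higher in satellite cells than in +Dox, and their summed normalized count was 19010 to 26950 against 116 to 317 in +Dox and 69.8 to 192 in -Dox, with Cdh5 at 0 in all iPax7 libraries. Of 11 fibroblast markers 7 were higher, with sums of 180500 to 412500 against 32450 to 33930 in +Dox and 10420 to 16150 in -Dox, and Lum was at 0 in +Dox. A single gene, Gsn, held much of these sums, with 110200 to 285900 in satellite cells, 20410 to 27980 in +Dox and 5989 to 9694 in -Dox. Of 10 measured macrophage markers 7 were higher, with sums of 4568 to 15770 against 270 to 516 in +Dox and 305 to 409 in -Dox, and Ptprc and Adgre1 were at 0 in the iPax7 libraries. Of 7 neutrophil markers 6 were higher, with sums of 12720, 1968 and 149 in the 3 satellite libraries against at most 12 in any iPax7 library. Of 7 smooth muscle or pericyte markers 6 were higher than in +Dox, with sums of 34850 to 58960 against 4436 to 9008, and 66550 to 67640 in -Dox. Most of the -Dox sum was Acta2 (53840 to 53990) and Tagln (11960 to 12580). Against -Dox, 4 of the 7 (Myh11, Rgs5, Cspg4 and Notch3) were called higher in satellite cells and 1 (Acta2) lower. Of 6 Schwann cell or tenocyte markers 5 were higher, with sums of 2949 to 4723 against 110 to 207 in +Dox and 197 to 277 in -Dox. Of 13 quiescent satellite cell markers 11 were higher and 1 lower, with sums of 778600 to 1257000 against 188500 to 267000 in +Dox and 52760 to 56350 in -Dox. Of 8 myofiber markers 5 were higher than in +Dox, with sums of 3783 to 6582 against 35.3 to 133. The part of these other cells in the differences was not tested, and in bulk RNA more cells of a type cannot be told apart from more RNA per cell.

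The plot of levels shows the genes by role.

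**Figure D1:**
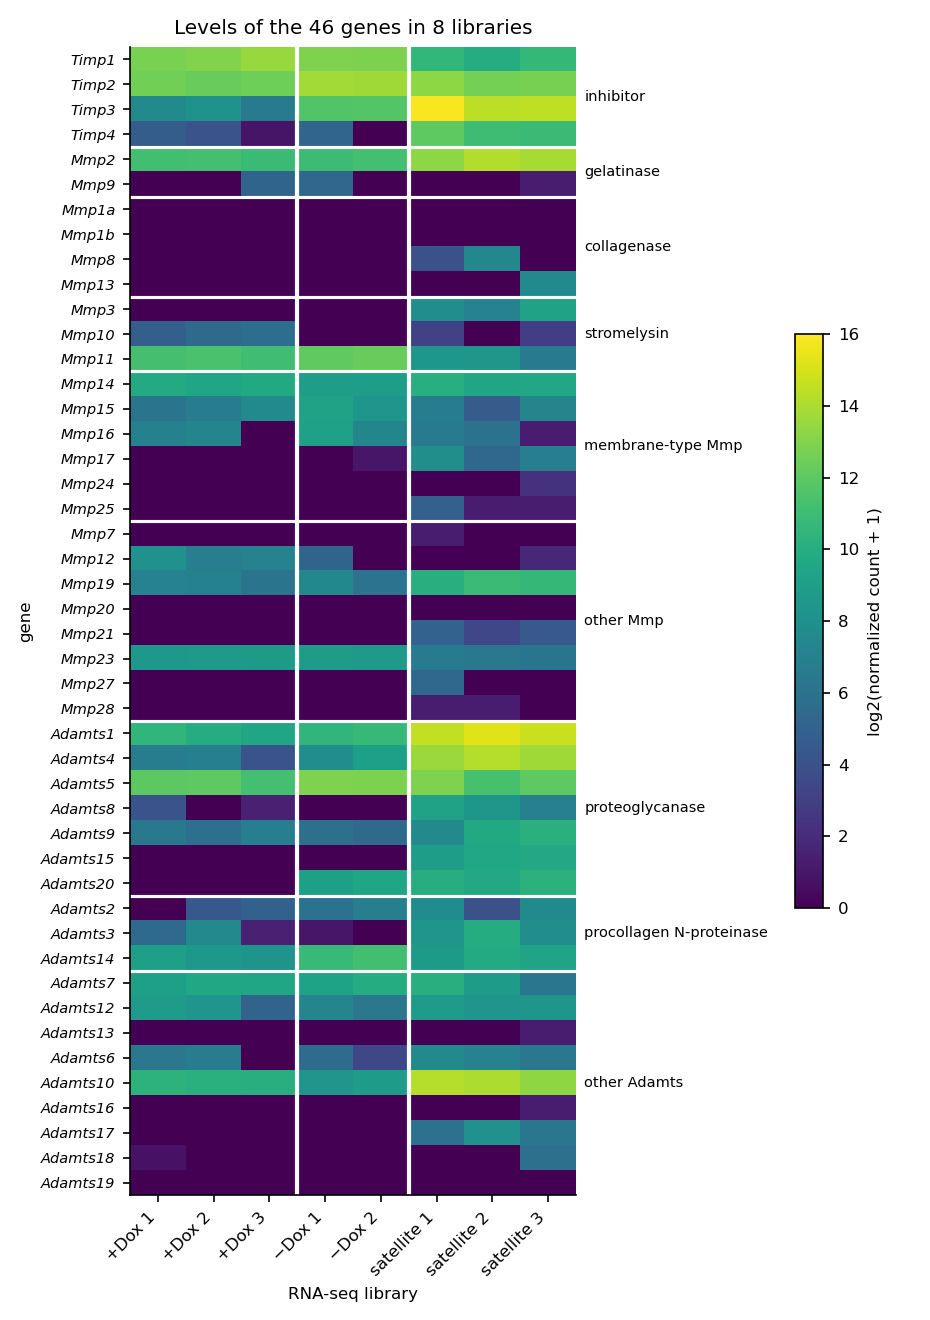
Each row is a gene, grouped by role, each column an RNA-seq library, and the colour gives log2(normalized count + 1). Timp3, Adamts1, Adamts4 and Adamts10 are brightest in the 3 satellite libraries, Mmp11 is brighter in the 5 iPax7 libraries, and 4 genes (Adamts19, Mmp1a, Mmp1b and Mmp20) hold no count in any library.

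The mix of inhibitors differed between the groups, with Timp1 leading in iPax7 cells and Timp3 in satellite cells per length of transcript. Timp1, the gene with the shortest exon sequence of the 4 (X chromosome, 20447292 to 20451861 of NCBIM37, the build of the peak files), had 7083, 8152 and 11710 normalized counts in +Dox, 7672 and 7442 in -Dox, and 1546, 940 and 1593 in satellite cells. The +Dox and -Dox libraries overlapped and all 5 lay above the satellite libraries. Timp1 was lower in satellite cells than in +Dox by a log2 fold change of -2.72 (SE 0.31, adjusted p = 0.000167) and than in -Dox by -2.47 (SE 0.325, adjusted p = 0.000445), while the change on withdrawal was -0.25 (SE 0.326, adjusted p = 0.758).

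Timp2, which blocks Mmp2 and also takes part in its activation at the cell surface together with Mmp14, had 6178, 5030 and 5774 normalized counts in +Dox, 13830 and 13430 in -Dox, and 10050, 6399 and 6654 in satellite cells. Both -Dox libraries were above every other library. The rise on withdrawal was 1.27 on the log2 scale (SE 0.269, adjusted p = 0.0209), or 2.41-fold. Without any single iPax7 library other than +Dox replicate 3, the adjusted p of Timp2 lay between 0.0579 and 0.157, and with library totals it was 0.0543. Satellite cells differed from +Dox by 0.44 (SE 0.244, adjusted p = 0.165) and from -Dox by -0.82 (SE 0.269, adjusted p = 0.0364), which is under 2-fold.

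Timp3, the matrix-bound inhibitor, had 198, 287 and 90.2 normalized counts in +Dox, 3285 and 3413 in -Dox, and 58350, 21690 and 22790 in satellite cells. The 3 groups did not overlap, and satellite replicate 1, which also had the highest sums of the quiescent satellite cell, fibroblast, macrophage, neutrophil and myofiber markers, stood above the other two satellite libraries. The rise on withdrawal was 4.12 on the log2 scale (SE 0.558, adjusted p = 0.00216), or 17.4-fold, and satellite cells were higher again than -Dox by 3.36 (SE 0.61, adjusted p = 0.00241). The gene (chromosome 10, 85763117 to 85812251, plus strand) lies inside Syn3 and shares 21.3% of its exon bases with that gene's models. Syn3 had between 0 and 81.8 normalized counts in the 8 libraries.

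The 250 bases before the RefSeq start of Timp3 are shown because this gene had the largest fold change on withdrawal among the inhibitors. They lie at chr10:86300162-86300411 of GRCm38.p6, plus strand, and capitals mark matches to the E-box CANNTG, the letters that muscle regulatory factors recognise, searched on both strands (the motif reads the same on each).
Timp3: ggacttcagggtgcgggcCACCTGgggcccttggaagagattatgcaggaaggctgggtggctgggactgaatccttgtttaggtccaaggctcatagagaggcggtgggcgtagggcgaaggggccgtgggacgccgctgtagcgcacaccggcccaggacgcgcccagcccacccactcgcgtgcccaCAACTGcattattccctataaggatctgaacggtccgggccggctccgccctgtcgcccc
The window held 2 matches. An E-box stood in the same window of 69.3% of 27025 mouse genes and of 23 of the 32 genes described here that the RefSeq table holds, so Timp3 shares it with most genes.

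Timp4, an inhibitor best known from heart and skeletal muscle, had 25.5, 16.3 and 0.911 normalized counts in +Dox, 35.8 and 0 in -Dox, and 4165, 2052 and 1911 in satellite cells. It was higher in satellite cells than in +Dox by 7.54 on the log2 scale (SE 1.32, adjusted p = 0.00164) and than in -Dox by 7.23 (SE 1.57, adjusted p = 0.006). Its change on withdrawal was 0.31 (SE 1.23, adjusted p = 0.967), with the sign set by single libraries.

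Set on a scale that can be compared between genes, normalized counts per kilobase of exon, Timp1 made up 83% to 89.8% of the summed Timp level in the +Dox libraries, 68.4% to 68.5% in the -Dox libraries and 12.1% to 23.5% in the satellite libraries. Timp2 held 10.1% to 16.5%, 28.1% in both -Dox libraries, and 17.9% to 24.1%. Timp3 held at most 0.335% in +Dox, 3.2% and 3.42% in -Dox, and 36.6% to 49.7% in satellite cells, where Timp4 held a further 17.6% to 21.3%. The summed level itself ran from 9604 to 14680 counts per kilobase in +Dox, 12250 to 12620 in -Dox and 6813 to 14430 in satellite cells, so the groups overlapped in the total. They did not overlap in the shares of Timp1, Timp2 and Timp3, and for Timp4 only the satellite libraries stood apart.

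**Figure D2:**
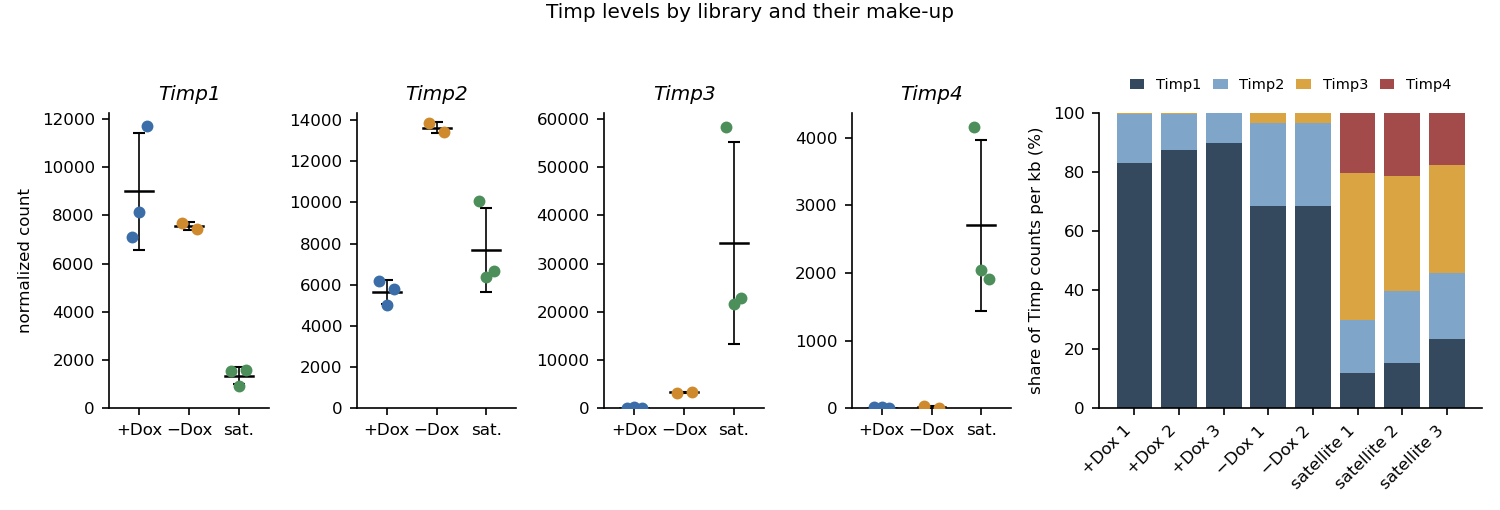
The first 4 panels plot the normalized count of each Timp in each library (points) with the group mean (line) and SD (bar, n = 3, 2 and 3). The last panel stacks each library's Timp counts per kilobase to 100%, and Timp1 goes from at least 83% of the stack in +Dox to at most 23.5% in satellite cells.

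Among the proteoglycanases, the Adamts group that cuts versican and related proteoglycans, Adamts20 was the member called higher on withdrawal. Adamts20 (chromosome 15, 94100594 to 94295849, minus strand), known in the mouse from its requirement for the spread of pigment cell precursors, had 0, 0 and 0 counts in +Dox, 535 and 675 normalized counts in -Dox, and 1001, 804 and 1265 in satellite cells. It was called higher in -Dox (adjusted p = 0.000177). Set against a floor of 3 counts summed over the +Dox libraries, it was at least 762-fold higher in -Dox and at least 1290-fold higher in satellite cells. Between satellite cells and -Dox the log2 fold change was 0.76 (SE 0.482, adjusted p = 0.242), although all 3 satellite libraries lay above both -Dox libraries.

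The 250 bases before the RefSeq start of Adamts20 are shown because the gene had no count in any +Dox library and was called higher in -Dox. They lie at chr15:94404351-94404600 of GRCm38.p6, minus strand, and are printed in the direction of the gene with E-box matches in capitals.
Adamts20: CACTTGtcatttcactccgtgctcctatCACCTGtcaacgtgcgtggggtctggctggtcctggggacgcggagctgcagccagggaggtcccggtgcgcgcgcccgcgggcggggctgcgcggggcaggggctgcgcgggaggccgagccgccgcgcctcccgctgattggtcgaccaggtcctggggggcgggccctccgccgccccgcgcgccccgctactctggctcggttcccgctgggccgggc
The window held 2 E-box matches and 76.4% of its bases were G or C. It held no match on either strand to the AP-1 letters TGANTCA or to the paired-domain letters GTCACG, which says only that those letters are absent from this window.

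Adamts4, a proteoglycanase named for cutting aggrecan, had 108, 117 and 16.4 normalized counts in +Dox, 227 and 511 in -Dox, and 12570, 18970 and 13540 in satellite cells. The -Dox libraries lay above all +Dox libraries, but the log2 difference of 2.19 (SE 0.651) had an adjusted p of 0.0769 by edgeR, while DESeq2 called the gene higher. Against +Dox, satellite cells were higher by 7.53 (SE 0.765, adjusted p = 9.08e-05), or 185-fold.

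Adamts5, the other main aggrecan-cutting enzyme, lay at 2416 to 4205 normalized counts in +Dox, 7251 to 7542 in -Dox and 2630 to 7512 in satellite cells. The -Dox libraries lay above all +Dox libraries, with a log2 difference of 1.07 (SE 0.422, unadjusted p = 0.0309 and adjusted p = 0.176 by edgeR), and Adamts5 was called higher on withdrawal in the fit of only those 2 groups. Per kilobase it was the most abundant Adamts in every iPax7 library, with 36.8% to 42.4% of the family's summed level in +Dox and 42.6% to 49.7% in -Dox, and it held 2.12% to 7.56% in the satellite libraries. There Adamts1, a broadly expressed proteoglycanase, held 36.3% to 46.8%.

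Among the procollagen N-proteinases, which remove the amino-terminal propeptide of fibrillar collagens, Adamts14 rose on withdrawal. It had 527, 370 and 307 normalized counts in +Dox, 1811 and 2327 in -Dox, and 428, 881 and 640 in satellite cells, so that -Dox stood above both other groups. The rise was 2.37 on the log2 scale (SE 0.425, adjusted p = 0.00922), or 5.15-fold, and satellite cells were lower than -Dox by -1.67 (SE 0.421, adjusted p = 0.012). Without -Dox replicate 2 the adjusted p was 0.0897 on withdrawal and 0.0928 for the second difference.

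Adamts3, of the same enzyme group, had 42.8, 181 and 1.82 normalized counts in +Dox, 0.919 and 0 in -Dox, and 344, 938 and 232 in satellite cells. With 1 count in all in -Dox, its level in satellite cells was 1090 times higher with a 95% counting interval of 195 to 43100 (adjusted p = 0.00787, and 0.0613 without -Dox replicate 2). Its lower level in -Dox than in +Dox had an adjusted p of 0.0745 and rested on 304 counts spread unevenly over the +Dox libraries, and it was called by DESeq2 and without +Dox replicate 3. Adamts2, the third of this group, lay at 0 to 30.1 normalized counts in +Dox, 62.5 to 116 in -Dox and 14.7 to 211 in satellite cells and was not called.

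Adamts10, which binds fibrillin and takes part in microfibril assembly, was the only gene of the 46 called lower on withdrawal. It had 1308, 1152 and 1062 normalized counts in +Dox, 326 and 430 in -Dox, and 19120, 16750 and 10330 in satellite cells, with no overlap between any of the groups. The fall was -1.63 on the log2 scale (SE 0.331, adjusted p = 0.0166), a fold of 3.1. Leaving out +Dox replicate 1, +Dox replicate 2, -Dox replicate 1 or -Dox replicate 2 took the adjusted p to 0.0547, 0.0529, 0.192 and 0.0969. Satellite cells were higher than +Dox by 3.71 (SE 0.309, adjusted p = 3.44e-05) and than -Dox by 5.35 (SE 0.401, adjusted p = 3.68e-05).

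Of 14 Mmps tested by edgeR, 0 were called on withdrawal, beside 4.63% of all genes tested that rose and 3.01% that fell. Mmp10 and Mmp15 had an unadjusted p under 0.05 by edgeR (0.0112 and 0.0463), and DESeq2 called Mmp10 lower. Mmp15, a membrane-type enzyme, had 71.4 to 191 normalized counts in +Dox and 342 to 596 in -Dox, a log2 difference of 1.94 (SE 0.849, adjusted p = 0.222). Mmp10, a stromelysin, had 27.8 to 52.8 in +Dox and no count in -Dox. It passed the filter only through +Dox, so it could not be called higher in -Dox. Mmp2, the main gelatinase of muscle, differed by -0.01 (SE 0.303, adjusted p = 1), and its activator Mmp14 by -0.70 (SE 0.381, adjusted p = 0.337).

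**Figure D3:**
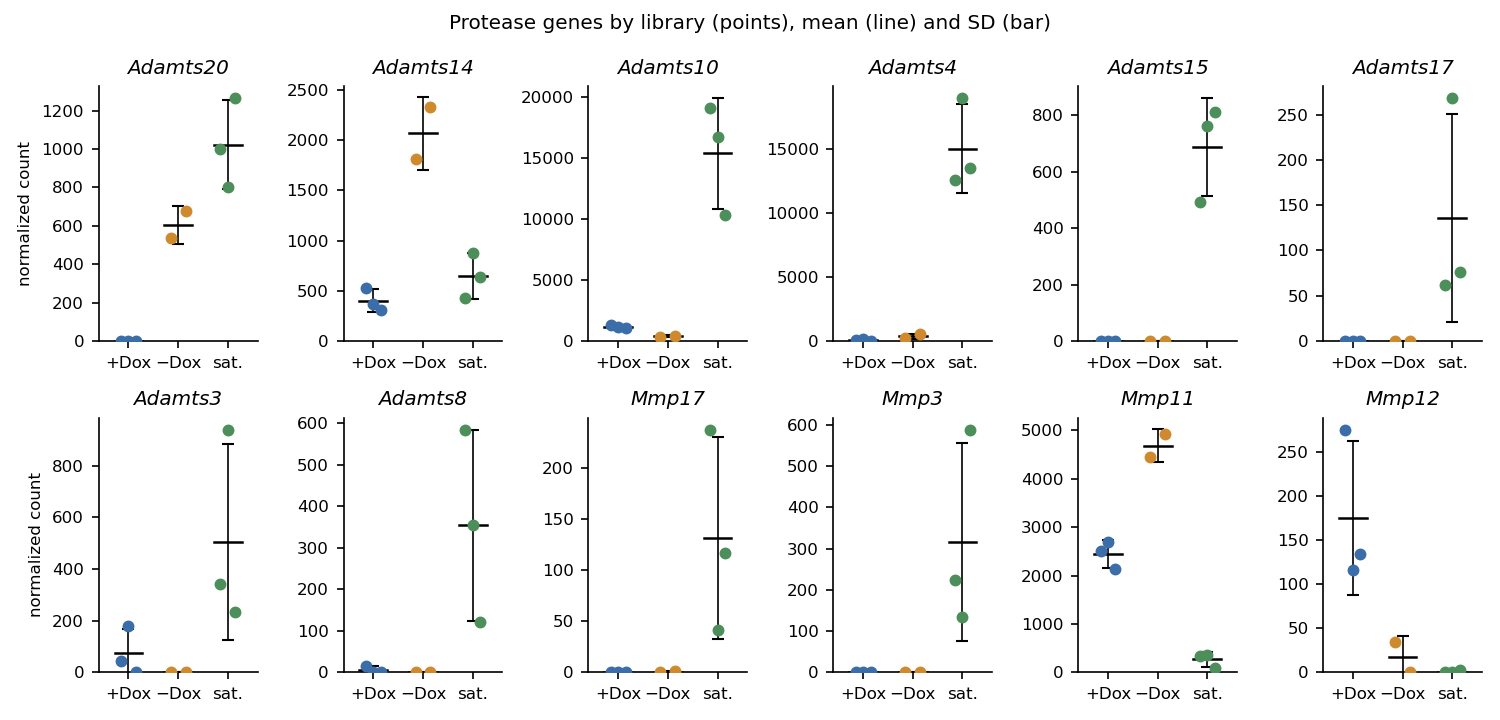
Each panel plots the normalized counts of a protease gene in the 3 +Dox, 2 -Dox and 3 satellite (sat.) libraries as points, with the mean as a line and the SD as a bar, on axes that start at 0 and differ between panels. Adamts20 is at 0 in +Dox and at 535 or more elsewhere, Adamts14 is highest in -Dox, and Adamts15, Adamts17 and Mmp3 hold counts in satellite cells alone.

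Of the 7 proteoglycanases 6 were higher in satellite cells than in +Dox, the exception being Adamts5, beside 23.9% of all genes tested. Adamts15 and Adamts8, the latter with 23 counts in +Dox, passed the filter only through satellite cells, so the count carries no test. Adamts15 had no count in any of the 5 iPax7 libraries and 491, 761 and 812 normalized counts in satellite cells, at least 867-fold above the +Dox floor and at least 498-fold above the -Dox floor (adjusted p = 0.000244 and 0.000694). Adamts8, its neighbour on chromosome 9, had 15.8, 0 and 1.82 in +Dox, 0 and 0 in -Dox, and 584, 355 and 123 in satellite cells. It was at least 256-fold above the -Dox floor (adjusted p = 0.00912, and 0.0503 without -Dox replicate 1), and higher than +Dox by 5.88 on the log2 scale (SE 1.55, adjusted p = 0.0153), a call that was lost without +Dox replicate 3. In both genes each satellite library lay above each iPax7 library.

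Adamts1 was the most abundant Adamts of the satellite libraries per kilobase and rose from 711 to 1481 normalized counts in +Dox and 1505 to 1676 in -Dox to 23670 to 38120 in satellite cells, a log2 fold change over +Dox of 4.81 (SE 0.361, adjusted p = 1.93e-05). Adamts9, which cuts versican, lay at 56.3 to 114 in +Dox, 46.2 to 59.7 in -Dox and 182 to 1143 in satellite cells, higher than +Dox by 3.09 (SE 0.725, adjusted p = 0.00756) and than -Dox by 3.77 (SE 0.89, adjusted p = 0.00888), the second of which was lost without either -Dox library. The summed Adamts level per kilobase ran from 812 to 1318 in +Dox, 1874 to 2105 in -Dox and 10950 to 15360 in satellite cells, with no overlap between the groups.

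Outside the proteoglycanases, Adamts17, a relative of Adamts10 with few known substrates, had no count in the iPax7 libraries and 61.9, 268 and 76.5 normalized counts in satellite cells, at least 170-fold above the +Dox floor and at least 97.5-fold above the -Dox floor (adjusted p = 0.00564 and 0.0144). Without either -Dox library its adjusted p against -Dox was 0.0663 or more. Adamts6, Adamts7 and Adamts12 were tested and not called in the 3 comparisons over all 8 libraries. Adamts7, which cuts the cartilage protein Comp, had 524 to 724 normalized counts in +Dox, 620 to 977 in -Dox and 76.5 to 1106 in satellite cells, and Adamts12, its nearest relative, lay between 32.8 and 454 over all libraries.

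Of the 14 Mmps tested, 6 were higher and 3 lower in satellite cells than in +Dox, beside 23.9% and 18.2% of all genes tested. Among the 6, Mmp3, Mmp8, Mmp17 and Mmp21 passed the filter only through their counts in satellite cells. Among the 3, Mmp12 passed it only through +Dox. Neither count carries a test. Mmp2 lay at 1930 to 2365 normalized counts in +Dox, 2002 to 2358 in -Dox and 9821 to 18500 in satellite cells, higher than +Dox by 2.72 on the log2 scale (SE 0.289, adjusted p = 0.000118). It held 73.4% to 83.7% of the summed Mmp level per kilobase in satellite cells and 22% to 33.1% in the iPax7 libraries. Mmp19, which acts on basement membrane proteins, lay at 68.3 to 176 over the iPax7 libraries and 1112 to 1914 in satellite cells, higher than +Dox by 3.78 (SE 0.527, adjusted p = 0.000484).

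Mmp3, stromelysin-1, had no count in iPax7 cells and 225, 135 and 588 normalized counts in satellite cells, at least 400-fold above the +Dox floor (adjusted p = 0.00164) and at least 230-fold above the -Dox floor (adjusted p = 0.00454). Mmp17, a membrane-type enzyme anchored by a lipid rather than by a transmembrane stretch, had 0, 0 and 0 in +Dox, 0 and 0.923 in -Dox, and 237, 41.6 and 116 in satellite cells. It was at least 166-fold above the +Dox floor (adjusted p = 0.0045), and 287 times above -Dox, where it had 1 count, with a 95% counting interval of 51.1 to 11400 (adjusted p = 0.021, and 0.115 and 0.0689 without -Dox replicate 1 or 2).

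Mmp8, the neutrophil collagenase, had 14.5, 169 and 0 normalized counts in the satellite libraries and an adjusted p of 0.0497 against +Dox, in libraries whose neutrophil marker sums were 12720, 1968 and 149. Mmp21, with 9.38 to 31.6 normalized counts in satellite cells and none in iPax7 cells, had an adjusted p of 0.0315. Both calls were lost without any 1 of the 5 iPax7 libraries and without satellite replicate 1, that of Mmp8 also without satellite replicate 2 and that of Mmp21 also without satellite replicate 3.

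The lower Mmps were Mmp11, Mmp12 and Mmp23. Mmp11, stromelysin-3, which is active on leaving the cell because furin removes its prodomain inside, had 2518, 2688 and 2138 normalized counts in +Dox, 4442 and 4920 in -Dox, and 344, 361 and 98.9 in satellite cells. Its libraries did not overlap between groups. Satellite cells were lower than +Dox by -3.19 (SE 0.466, adjusted p = 0.000637) and than -Dox by -4.13 (SE 0.505, adjusted p = 0.000319), and the difference of 0.94 on withdrawal (SE 0.471) had an adjusted p of 0.292. Per kilobase Mmp11 was the most abundant Mmp in every iPax7 library, at 39.1% to 43.3% of the family in +Dox and 56.1% to 59.7% in -Dox, and held 0.595% to 2.95% in satellite cells.

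Mmp23, a furin-cut enzyme that lies in the membrane before its release, had 376, 391 and 426 normalized counts in +Dox, 460 and 393 in -Dox, and 93.5, 83.1 and 72.5 in satellite cells. It was lower in satellite cells than in +Dox by -2.26 (SE 0.477, adjusted p = 0.00447) and than in -Dox by -2.36 (SE 0.509, adjusted p = 0.00576). Mmp12, the macrophage elastase, had 275, 116 and 134 in +Dox, 34 and 0 in -Dox, and 0, 0 and 2.64 in satellite cells. Its 2 counts in satellite cells put it 201 times below +Dox with a 95% counting interval of 55.3 to 1660 (adjusted p = 0.0148), in libraries that carried macrophage markers. Mmp12 passed the filter only through +Dox, so it could not be called higher in satellite cells.

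**Figure D4:**
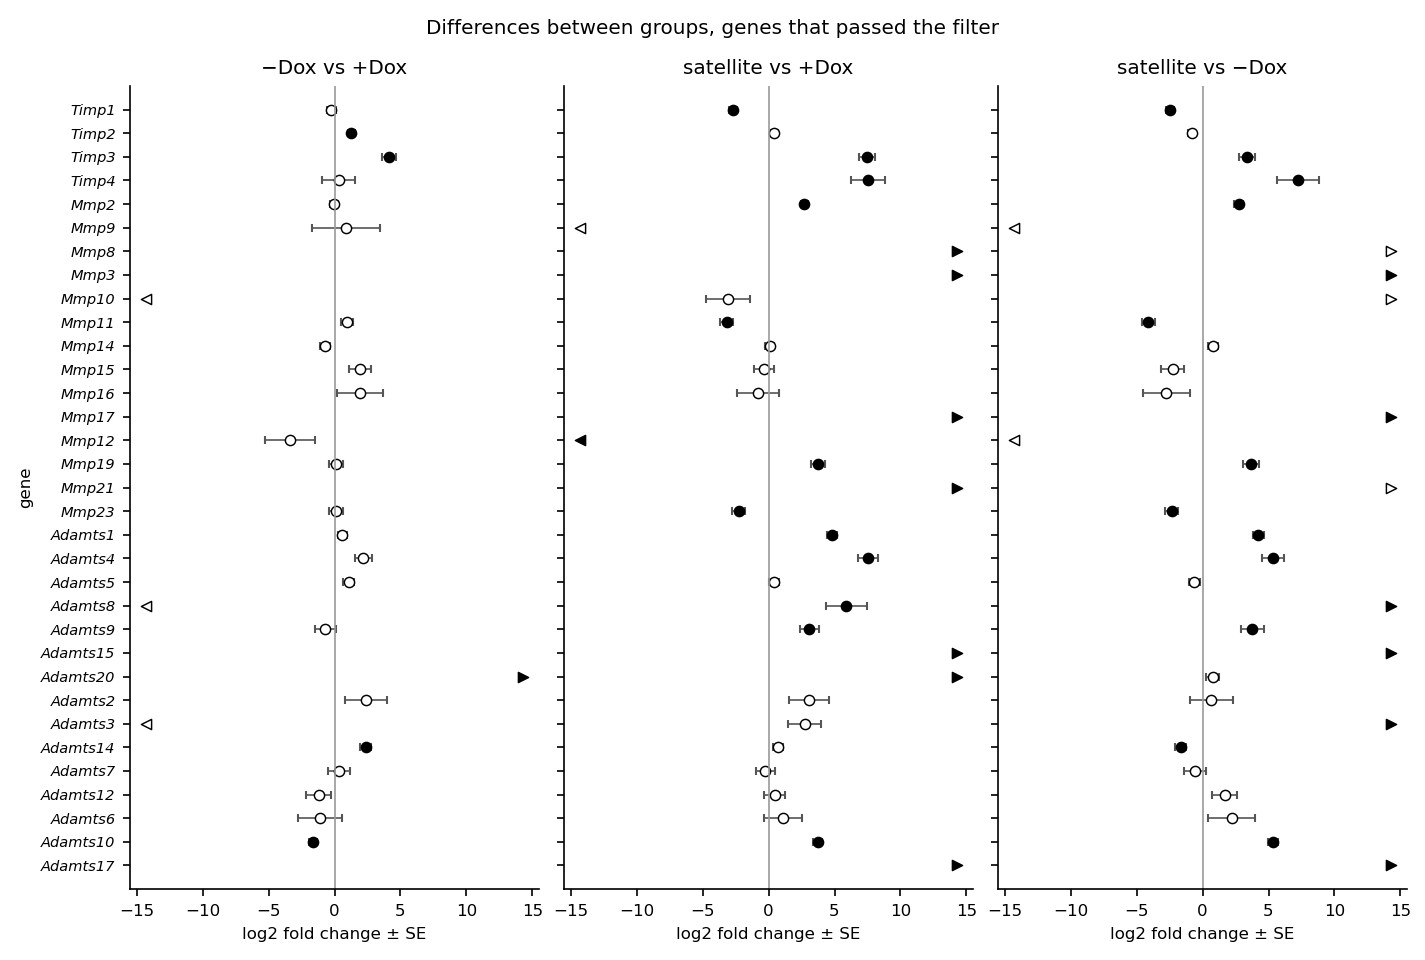
Each row is a gene that passed the filter and each panel a comparison, with the log2 fold change as a circle and its SE as a bar. Filled symbols were called, and triangles at the edge mark genes with 3 or fewer counts in a group compared, for which no fold is drawn, while a blank place marks 3 or fewer counts in both groups. Filled symbols number 5 on withdrawal, 20 for satellite cells over +Dox and 18 for satellite cells over -Dox.

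The 13 genes that did not pass the filter were Adamts13, Adamts16, Adamts18, Adamts19, Mmp1a, Mmp1b, Mmp7, Mmp13, Mmp20, Mmp24, Mmp25, Mmp27 and Mmp28. The highest level among them was 193 normalized counts of the collagenase Mmp13, all in satellite replicate 3. Of these, 4 (Adamts19, Mmp1a, Mmp1b and the tooth enamel protease Mmp20) had no count in any library, and 17 of the 46 had none in the 5 iPax7 libraries. For Mmp1a and Mmp1b, closely related copies, reads that match both could have been set aside by the counting.

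A group of 10 Mmps lies within 427 kb of chromosome 9 (7272514 to 7699585), in the order Mmp13, Mmp12, Mmp1b, Mmp3, Mmp1a, Mmp10, Mmp8, Mmp27, Mmp20 and Mmp7, and this cluster held few counts. In +Dox 2 of the 10 had any count, Mmp12 and Mmp10, in -Dox 1 (Mmp12) and in satellite cells 7, of which Mmp3 had the largest mean, 316 normalized counts. None of the 10 had an H3K4me3 or H3K27Ac peak at a start in either iPax7 list, while peaks of open chromatin from ATAC-seq stood at 2 of them in +Dox, 3 at 12 h without Dox, 5 at 24 h, 6 at 3 days, 0 in myotubes made from iPax7 cells and 0 in satellite cells. These lists differ in length, with 135564, 112586, 136638, 172103, 99784 and 90464 peaks, and they held a peak at the start of 66.8%, 64.9%, 68.1%, 69.2%, 65.4% and 62% of all genes. The part of list length in the counts was not tested.

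Parts of the cluster's promoters are shown because 8 of them share a motif. The AP-1 site, bound by Fos and Jun proteins and long known from collagenase and stromelysin genes, was searched as TGANTCA on both strands in the 250 bases before each RefSeq start. It was found in 8 of the 32 genes described here that the table holds, or 25%, against 7.82% of 27025 genes, and all 8 belong to this cluster. Each line gives the match in capitals with the bases on each side in the direction of the gene (GRCm38.p6).
Mmp13: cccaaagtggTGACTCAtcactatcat
Mmp12: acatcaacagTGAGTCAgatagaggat
Mmp1b: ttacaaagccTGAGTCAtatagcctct
Mmp3: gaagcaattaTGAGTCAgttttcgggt
Mmp1a: ttgtcaaccaTGAGTCAcatagcctct
Mmp10: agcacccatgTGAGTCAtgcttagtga
Mmp20: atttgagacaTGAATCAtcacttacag
Mmp7: agtgtgcaaaTGAGTCAcctatttcca
The first base of the match lay between 35 bases (Mmp13) and 95 bases (Mmp20) before the start. The windows printed run from chr9:7272469-7272495 for Mmp13 to chr9:7692017-7692043 for Mmp7, and Mmp1b is read from the minus strand. Mmp3, the cluster member with the largest mean in satellite cells, and Mmp1a and Mmp1b, with none, all held the match, and it is a description of the letters and not of binding.

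The peak lists give 1 merged set of peaks for each condition, so they have no replicate check and no test. A start was counted as holding a peak when the peak fell within 1 kb of an annotated protein-coding start in GENCODE M1, which held all 46 genes. ATAC peaks stood at 31 of 46 in +Dox (67.4%, against 66.8% of 18861 genes), 35 at 3 days without Dox (76.1% against 69.2%) and 26 in satellite cells (56.5% against 62%). H3K4me3, a mark of start sites, was listed at 31 in both iPax7 lists (67.4% against 64.1% in +Dox and 69.8% in -Dox). H3K27Ac, a mark of active promoters and enhancers, was listed at 14 in +Dox (30.4% against 51%) and 16 in -Dox (34.8% against 48%). H3K27me3, the mark left by Polycomb complexes, was listed at 17 in both (37% against 22.8% in +Dox and 20.9% in -Dox).

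The 14 genes with H3K27Ac in +Dox had a median of 925 normalized counts there and 12 of them reached 100. The 17 with H3K27me3 in +Dox had a median of 0, and 15 of them lay below 100. Of these 17, 14 also held H3K4me3, and Adamts9 alone held H3K27Ac and H3K27me3 together. Timp3 and Adamts20, the members that rose most on withdrawal, were both in the H3K27me3 group. Each held ATAC, H3K4me3 and H3K27me3 peaks and no H3K27Ac peak in +Dox, and the same set of peaks was listed 3 days after withdrawal. Adamts14 and Timp2, which also rose, and Adamts10, which fell, each held ATAC, H3K4me3 and H3K27Ac without H3K27me3 in both. Of the 17 H3K27me3 genes, 7 were called higher in satellite cells than in +Dox, as were 5 of the 14 with H3K27Ac and 5 of the 16 with neither mark, beside 23.9% of all genes tested. All 14 with H3K27Ac were tested, while the 13 genes that did not pass the filter all lay among the 17 or the 16. The counts therefore have unlike bases and cannot be set against each other or against the 23.9%. The 7 were Adamts8, Adamts9, Adamts15, Adamts17, Adamts20, Mmp17 and Timp3, and all had an ATAC peak in +Dox and in satellite cells. Of these, Adamts8, Adamts15, Adamts17 and Mmp17 passed the filter only through their counts in satellite cells.

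At Mmp19 no ATAC peak was listed in +Dox, at 12 h or in myotubes made from iPax7 cells, a peak was listed at 24 h, at 3 days and in satellite cells, and H3K27Ac was listed at 3 days and not in +Dox, while its RNA overlapped between +Dox and -Dox. Timp4 and Mmp3, both called higher in satellite cells, had no ATAC peak within 1 kb of a start in any of the 10 ATAC lists, which include those of C2C12, a mouse myoblast line.

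**Figure D5:**
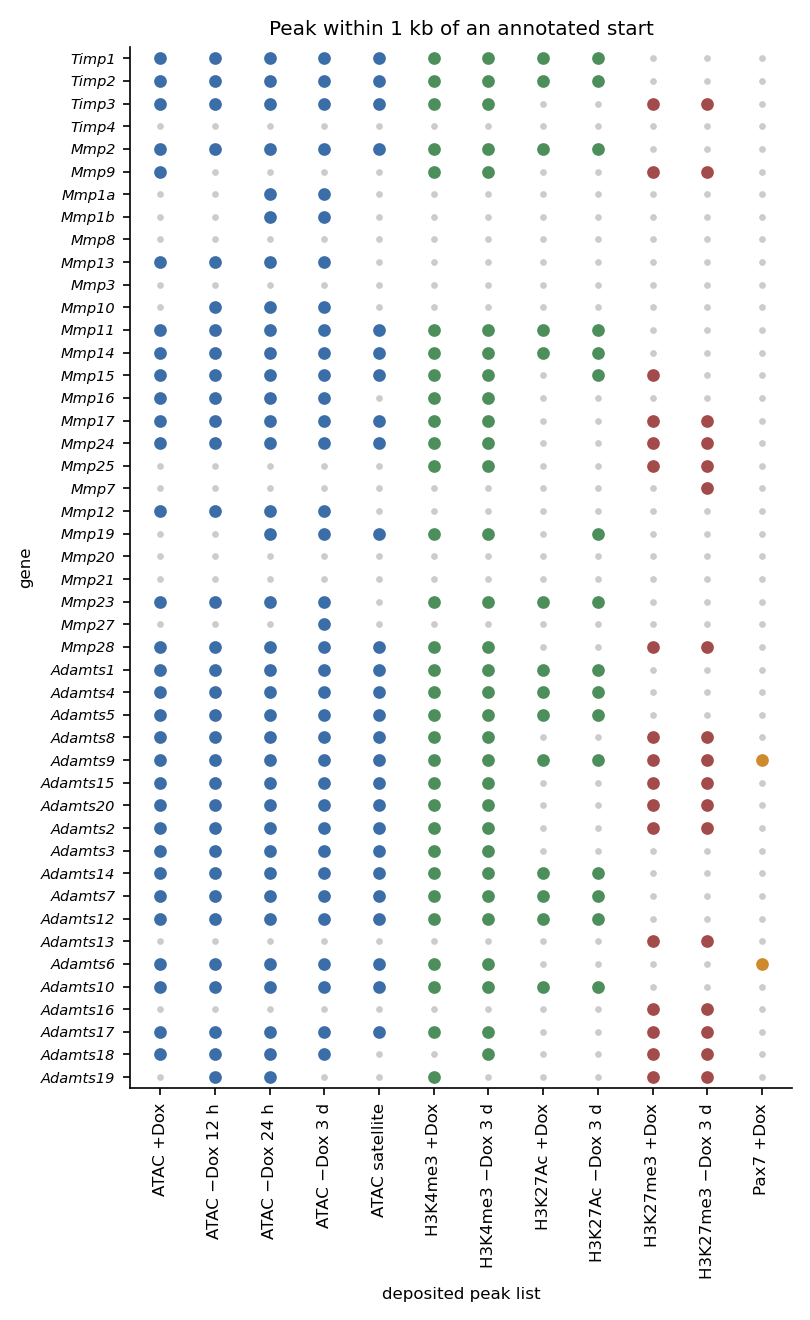
Rows are the 46 genes by role and columns the deposited peak lists, and a large dot marks a peak within 1 kb of an annotated start. H3K27me3 dots stand at 17 genes in each iPax7 list, including Timp3 and Adamts20, and the Pax7 column holds 2 dots.

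Pax7 binding sites of +Dox cells lay within 1 kb of a start at 2 of the 46 genes (4.35%, against 1.63% of all genes) and within 50 kb at 7 (15.2% against 11.1%). The site at chr6:92893281-92893866 of NCBIM37 spans the start of Adamts9 and overlaps its exon. The site at chr13:105076957-105077360 ends 593 bases before the start of Adamts6, a relative of Adamts10, outside any exon of that gene. There were 2 sites inside Adamts5, 12840 and 21722 bases from its start, the nearer of them over an exon, and 2 inside Adamts12, 46152 and 73856 bases from its start and over no exon. Sites upstream of Adamts4 (27537 bases), Adamts13 (8615 bases) and Mmp19 (42508 bases) were nearer to the start of another gene.

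Adamts6, whose RNA ran from 0 to 110 normalized counts in +Dox and 10.2 to 49.6 in -Dox, and Adamts9, from 56.3 to 114 and 46.2 to 59.7, did not pass the test on withdrawal (log2 fold changes of -1.09 and -0.69, adjusted p = 0.808 and 0.705). None of the 5 genes called on withdrawal had a Pax7 site within 100 kb of a start, beside 23.9% of the 46 genes and 18.8% of all genes. With 5 genes this count cannot be told apart from those shares.

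The middle 300 bases of the Adamts6 site are shown because it was the Pax7 site nearest to a start that no exon covers. They lie at chr13:105077008-105077307 of NCBIM37 and are printed on the plus strand, the strand of the gene. Capitals mark matches to letters known for the 2 DNA-binding parts of Pax7, searched on both strands: GTCACG for the paired domain and TAATTA for the homeodomain.
Adamts6: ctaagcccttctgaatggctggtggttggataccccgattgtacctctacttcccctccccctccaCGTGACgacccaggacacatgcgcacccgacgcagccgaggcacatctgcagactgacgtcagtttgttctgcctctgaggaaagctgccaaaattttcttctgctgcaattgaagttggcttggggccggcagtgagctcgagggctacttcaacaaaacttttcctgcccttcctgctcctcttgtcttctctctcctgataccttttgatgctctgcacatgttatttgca
The window held 1 match, to GTCACG read on the other strand. Among all 2455 Pax7 sites, 9.82% held that match in their middle 300 bases and 9.74% held TAATTA. Of the 8 sites within 50 kb of the genes described here, 1 held the first and 1, upstream of Mmp19, the second.

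The genes around these proteases were taken from lists of activators, other inhibitors, related proteases and substrates. The counts called in these short lists stand beside 4.63% of all genes tested that rose on withdrawal and 3.01% that fell, and no list was tested as a set. Over +Dox, 8 of 22 tested substrates were higher and 6 lower in satellite cells, beside 23.9% and 18.2% of all genes tested. The astacin list had 6 and 2 of 12, Adam proteases 2 and 3 of 11 and plasminogen activation 4 and 2 of 9. Inhibitors and clearance proteins had 5 and 0 of 8, Adamts-like genes 3 and 2 of 6 and convertases 1 and 0 of 4. On withdrawal edgeR called 0 of 8 tested inhibitors and clearance proteins, with 0 at an unadjusted p under 0.05 and 0 called by DESeq2. It called 0 of 4 furin-type convertases, of which 2 (Pcsk5 and Pcsk6) had an unadjusted p under 0.05 and were called by DESeq2. Of the plasminogen activation list 1 of 9 fell. Plaur, the receptor that holds urokinase at the cell surface, had 21580, 21800 and 16160 normalized counts in +Dox and 3452 and 3714 in -Dox, a fall of -2.47 on the log2 scale (SE 0.266, adjusted p = 0.00062), and 37610 to 46500 in satellite cells.

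Of 12 astacins and other matrix proteases, 2 rose and 2 fell, beside 4.63% and 3.01% of all genes tested. Htra3, a secreted serine protease, went from 39.8, 130 and 118 normalized counts in +Dox to 3372 and 3579 in -Dox (log2 fold change 5.18, SE 0.545, adjusted p = 0.000518). Fap, a membrane peptidase, had no count in +Dox and 14.7 and 85.9 in -Dox, at least 63.2-fold above the floor (adjusted p = 0.0127). Prss23 fell from 20990, 21730 and 22460 to 4390 and 2717 (-2.61, SE 0.354, adjusted p = 0.00216). Mme, the peptidase neprilysin, fell from 4294, 3760 and 2633 to 117 and 36 (-5.54, SE 1.36, adjusted p = 0.0389).

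Of 11 tested Adam proteases 1 rose and 1 fell, beside 4.63% and 3.01% of all genes tested. Adam19, a membrane protease, went from 1848, 1572 and 573 normalized counts in +Dox to 4368 and 5622 in -Dox (1.91, SE 0.444, adjusted p = 0.031). Of the 6 Adamts-like genes, whose proteins lack the protease domain, edgeR and DESeq2 both called 0 on withdrawal, and 0 had an unadjusted p under 0.05. The Adam gene that fell was Adam9.

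Of 22 tested substrates 4 rose and 3 fell, beside 4.63% and 3.01% of all genes tested. Acan, the aggrecan core protein, had 212, 372 and 128 normalized counts in +Dox and none in -Dox, at least 177-fold below +Dox (adjusted p = 0.0118), and 1.32 or less in satellite cells. It passed the filter only through +Dox, so it could not be called higher in -Dox. Dcn, the proteoglycan decorin and also a fibroblast marker, went from 24, 28.1 and 98.4 to 899 and 886 (4.16, SE 0.562, adjusted p = 0.00216). Postn, the matrix protein periostin, went from 0, 23 and 0 to 598 and 686 (6.34, SE 1.43, adjusted p = 0.0272). Fn1, fibronectin, went from 8398, 8839 and 2919 to 28510 and 31770 (2.17, SE 0.441, adjusted p = 0.017). The thrombospondin gene Thbs1 fell from 14250, 15970 and 7252 to 3683 and 3646 (-1.77, SE 0.373, adjusted p = 0.0202), and the fibrillin gene Fbn1 from 2846, 2713 and 1344 to 627 and 802 (-1.69, SE 0.415, adjusted p = 0.0391). The fourth substrate that rose was Dag1, dystroglycan. In each gene given with its libraries the +Dox and -Dox values did not overlap. These genes were given because they were called in the same libraries, so this adds nothing to the calls. Genes that were not called, such as Adam10 (adjusted p = 0.775 by edgeR), also had no overlap.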

How the data were processed

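RNA-seq counts of reads per gene symbol were deposited by the authors for each library, without normalization, in the form HTSeq-count writes. Per the labels, the processing notes name TopHat2 2.0, Bowtie2 2.2 and 2.2.6, HTSeq 0.6, Trimmomatic 0.32, MACS2 2.0.10 and build mm9; which served RNA-seq, and its annotation, was not given in the sources used here. ATAC-seq peaks were deposited with −log10 q-values from the authors' peak caller, and other peak lists as positions.

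Here counts were tested in edgeR 4.0.16 (R 4.3.3) with TMM factors, filterByExpr and 1 mean for each of the 3 groups. The quasi-likelihood fit estimated the spread of each gene over all 8 libraries, shared by the 3 groups. The common dispersion over all genes was 0.413 and is given as a description only. DESeq2 1.42.0 served as an alternative. Standard errors were taken from each log2 fold change and its F statistic. Counting intervals are 95% exact and cover counting error only. The edgeR fit was tried on simulated counts with known changes, for the comparison of -Dox with +Dox alone, and the other steps were not. Replicate pairs differed beyond counting noise (chi-square per degree of freedom from 49.3 to 444). The lowest value was between +Dox replicates 1 and 2, and the -Dox pair had 52.7. Against +Dox replicates 1 and 2, +Dox replicate 3 had 440 and 317, so it stood apart within its group. Satellite pairs had 271 to 444. The part of +Dox replicate 3 in the spread used by the tests on withdrawal was not tested.

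The genes and lists were chosen with earlier results of these data known. Values in each library are given for the Timps, the genes called on withdrawal, up to 8 called genes with a mean of at least 100 in each direction of each satellite comparison, and up to 12 listed genes called on withdrawal. Coordinates of genes and peaks are those of GENCODE M1 on NCBIM37 (mm9), and promoters are RefSeq's on GRCm38.p6.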

Additional observations from a re-analysis of the deposited data

How the results depend on the processing

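Depth limits genes with few counts: 3 counts summed over a group were taken as the limit that a count of 0 allows, and calls of Mmp8 and Mmp21 rest on 137 and 47 counts. On withdrawal DESeq2 called 5 of the 46 genes higher, adding Adamts4 to the 4. The count called lower was 3 with DESeq2, 2 with only the libraries of the groups compared and 4 with the replicate block, against 1. Leaving out single libraries gave 2 to 4 genes higher (from 4), 0 to 2 lower (from 1), 3 (without -Dox replicate 2) to 8 listed network genes higher and 2 (without -Dox replicate 1) to 7 lower. For satellite cells over +Dox the ranges were 13 to 15 higher, 4 lower in every case, 25 to 29 network genes higher and 13 to 16 lower, and over -Dox 10 to 15, 4 to 6, 20 to 25 and 9 to 14. With all libraries, 9 of 22 substrates were higher and 4 lower than in -Dox, beside 20.4% and 17.2% of all genes tested. The astacin list had 2 and 1 of 12, Adam proteases 1 and 2 of 11 and plasminogen activation 4 and 4 of 9. Inhibitors and clearance proteins had 4 and 1 of 8, Adamts-like genes 2 and 2 of 6 and convertases 2 and 0 of 4. The network counts carry no test. Timp4 on withdrawal changed sign, to -2.06 with the replicate block, and from -6.89 (without -Dox replicate 1) through -0.22 (without +Dox replicate 3) to 1.32 over the fits that left out 1 library. Over all genes, 687 rose and 447 fell on withdrawal, against 1040 and 977 with DESeq2, 999 and 951 with only the libraries compared, 1223 and 1385 with the replicate block, and 363 to 779 and 125 to 595 without single libraries. Without either -Dox library, satellite cells over -Dox gave 1571 and 1618 genes higher and 1633 and 1764 lower, against 3031 and 2548. Of 34 named log2 fold changes, 23 kept their direction and side of the threshold in every alternative. Pax7 sites lay within 10 kb of 3 genes (6.52% against 3.58% of all genes) and within 100 kb of 11 (23.9% against 18.8%). The stronger part of a peak list could be taken for ATAC-seq alone. Same-numbered libraries showed no shared deviation (r from -0.0398 to 0.0272 over 7 pairs). With 2 or 3 libraries in a group this cannot decide whether the block's numbers mark pairs. The cause of these shifts was not tested.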
